A study of Mus musculus with 48 samples.

Results

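The genes of oxidative phosphorylation were followed here in 4 cell types of the neurovascular unit after experimental stroke in the mouse. They are the genes whose entry in the deposited table carries the KEGG pathway term for oxidative phosphorylation. Of 113 such genes, 107 averaged 10 or more normalized counts over 48 libraries and were kept, among 15003 genes of 24973 in the table that did so. The 6 left out were *Atp4a*, *Atp5l*, *Atp6v0d2*, *Atp6v1c2*, *Atp6v1e2* and *Cox7b2*. By their symbols, 38 members were assigned to complex I, 4 to complex II, 9 to complex III, 20 to complex IV, 14 to the ATP synthase and 18 to the V-ATPase. The remaining 4 are *Ppa1*, *Ppa2*, *Lhpp* and *Yjefn3*. *Cox10*, *Cox11*, *Cox15* and *Cox17* make or insert the cofactors of complex IV and are counted with it. *Ndufa4* and its relative *Ndufa4l2* are counted with complex I by their symbols, although the product of *Ndufa4* is a subunit of complex IV.

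In mitochondria, complexes I to IV pass electrons from NADH and succinate to oxygen. Complexes I, III and IV pump protons out of the matrix, and the ATP synthase uses the return of these protons to make ATP. The V-ATPase is a different machine that the pathway term also holds: it spends ATP to pump protons into lysosomes and endosomes, and its V1 part hydrolyses ATP while its V0 part forms the membrane channel. Several subunits exist as isoforms that differ between tissues. Core subunits made from the mitochondrial genome carry no pathway term in the table and are not members.

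The mice were adult male wild-type C57BL/6 animals. A filament closed the middle cerebral artery for 1 h and was then withdrawn for 23 h of reperfusion (transient middle cerebral artery occlusion, tMCAO), and the contralateral hemisphere of the same mice was the control. Microglia, astrocytes, pericytes and endothelial cells were each sorted by surface markers from pools of 3 to 4 mice, with 6 replicates for each cell type and hemisphere. All mice underwent surgery, so no library comes from an uninjured brain. For 12 ipsilateral libraries, the title of the sample and its column in the table disagree, 1 naming pericytes where the other names microglia. The column names were used, and all 16 cell type markers then separated their own cell type from the other 3 in both hemispheres.

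A library held between 10549900 and 16942165 normalized counts, and the spacing of low values puts the reads on genes at 4900000 to 17100000. Contralateral endothelial replicate 2 and ipsilateral microglia replicate 2 stood apart. In the first, the members made up 3.06% of all normalized counts, against 1.29% to 1.71% in the other contralateral endothelial libraries, and mitochondrial ribosomal RNA made up 3.33%. In the second, the members made up 2.54%, against 1.28% to 1.73%, and mitochondrial ribosomal RNA made up 1.395%. Astrocyte libraries held much oligodendrocyte RNA, with 6 markers summing to between 48141 and 452654 against at most 38522 in any other library. Microglial markers in the other cell types summed, over 4 markers, to between 532 and 28388 in replicates 1 to 4 and between 192 and 801 in replicates 5 and 6. The part of these in any result was not tested, and fewer cells of a type and less RNA per cell cannot be told apart in such libraries.

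Contralateral microglia held the least RNA of the respiratory chain and the most of the V-ATPase. The 85 genes of complexes I to IV and the ATP synthase together made up 0.848% ± 0.088 (SD, n = 6) of all normalized counts in contralateral microglia. In the other cell types they made up 1.496% ± 0.62 in endothelial cells, 1.73% ± 0.23 in pericytes and 1.48% ± 0.25 in astrocytes. The highest microglia library, at 0.969%, lay below the lowest of the other 18, at 1.06%. The 18 V-ATPase genes ran the other way, with 0.335% ± 0.019 in microglia, 0.306% ± 0.029 in astrocytes, 0.249% ± 0.032 in endothelial cells and 0.230% ± 0.037 in pericytes. The ranges of microglia and astrocytes overlapped for these genes, whereas every microglia library was above every endothelial and pericyte library.

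**Figure D1:**
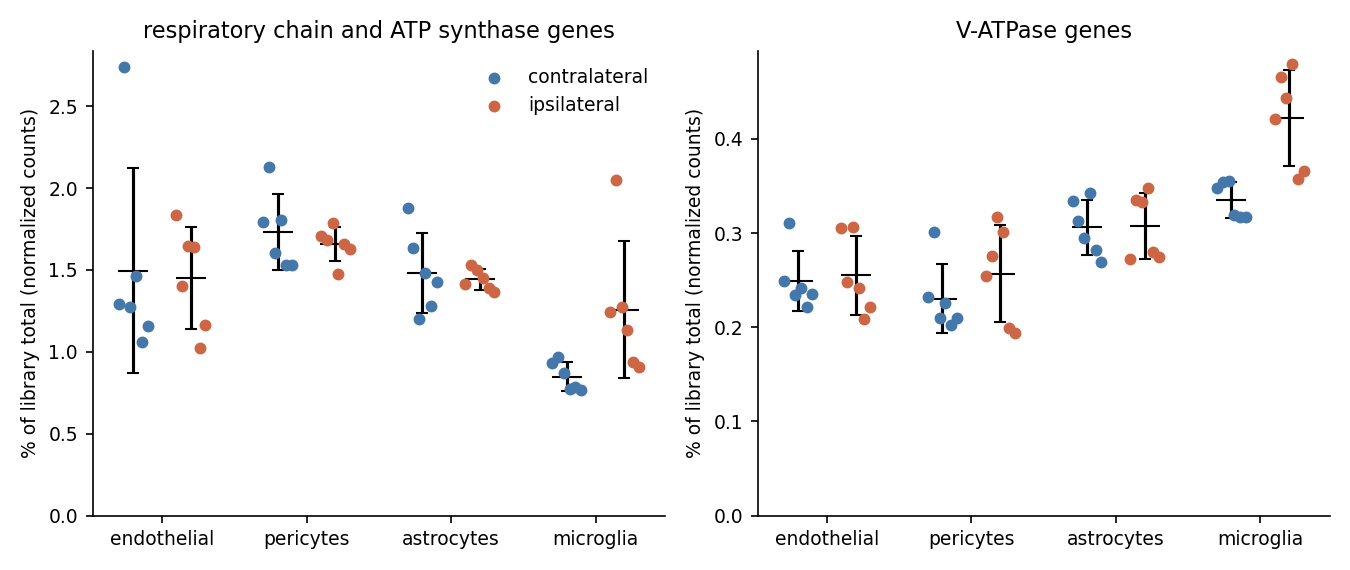
Share of all normalized counts of a library taken by the 85 respiratory chain and ATP synthase genes (left) and the 18 V-ATPase genes (right), in percent, for 4 cell types and 2 hemispheres. Points are libraries (n = 6 a group), bars are mean ± SD, and contralateral microglia lie lowest on the left, between 0.766% and 0.969%.

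Gene by gene, each contralateral cell type was compared with the mean of the other 3 by limma on log2(normalized count + 1). A difference was called at an adjusted p of at most 0.05 and a size of at least 1.5-fold, and differences are given on the log2 scale. In microglia, 56 of 85 respiratory chain and ATP synthase members were lower and 1 was higher. Over all 15103 genes tested, 29.6% were lower and 22.2% were higher. The median difference of these 85 members was -0.78, beside -0.11 for all genes. Lower members came from every complex, with 30 of 38 in complex I, 2 of 4 in complex II, 6 of 9 in complex III, 8 of 20 in complex IV and 10 of 14 in the ATP synthase. Without the libraries that stood apart, 54 were lower and 1 was higher.

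*Ndufv1*, the complex I subunit that accepts electrons from NADH, shows the pattern. Its lowest, median and highest values were 1035, 1150.5 and 1562 normalized counts in microglia, 2049, 2231.5 and 2523 in endothelial cells, 3101, 3777 and 4653 in pericytes, and 2589, 2752.5 and 4362 in astrocytes. All microglia libraries were below all others, and the difference was -1.30 (SE 0.13, adjusted p = 4.8e-09). *Ndufb9*, an accessory subunit of complex I chosen after its values were seen, fell between 910 and 1439 in microglia and between 1690 and 6611 elsewhere, with a difference of -1.47 (SE 0.23, adjusted p = 7.2e-06). All 6 microglia libraries lay below all 18 others for 8 of the 85 members (9.41%, against 3.54% of all genes). They lay above all others for 1, against 7.53% of all genes.

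That 1 member is *Cox6a2*, the heart and muscle form of a complex IV subunit. It ranged from 141 to 226 normalized counts in contralateral microglia (median 194) and from 0 to 65 in all other contralateral libraries, a difference of 4.89 (SE 0.81, adjusted p = 1.7e-05). Per length, it supplied 9.18% ± 1.67 of the *Cox6a1* and *Cox6a2* RNA in contralateral microglia, and a mean of 0.154% to 1.08% in the other contralateral cell types. *Cox6a1*, the ubiquitous form, stayed the main one everywhere.

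Of the V-ATPase, 6 of 18 members were higher in microglia and 1 was lower, beside 22.2% and 29.6% of all genes. The median difference was 0.18, beside -0.11 for all genes. *Tcirg1*, the a3 form of the large V0 subunit found in osteoclasts and macrophages, ranged from 1704 to 3516 normalized counts in microglia (median 2405) and from 176 to 1231 elsewhere. The groups did not overlap and the difference was 2.62 (SE 0.26, adjusted p = 6.6e-09). Per length, *Tcirg1* made up 42.3% ± 6.6 of the a subunit RNA in contralateral microglia. The a1 form, *Atp6v0a1*, led in the other contralateral cell types with 48.03% ± 10.4 in endothelial cells, 60.6% ± 6.8 in pericytes and 57.6% ± 4.6 in astrocytes. *Atp6v0b*, which contributes to the proton-carrying ring of V0, and *Atp6ap1*, an accessory subunit, were higher by 1.26 and 1.04. *Atp6v1c1*, *Atp6v0a2* and *Atp6v1b2* were higher by 1.03, 0.99 and 0.80.

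The 1 V-ATPase member lower in microglia had the largest difference of all members. *Atp6v0e2*, an isoform of the small V0 subunit e, was at 26 to 79 normalized counts in contralateral microglia (median 38). Its medians were 1002.5 in endothelial cells, 2638.5 in pericytes and 3232.5 in astrocytes, and the lowest library outside microglia had 559. The difference was -5.65 (SE 0.20, adjusted p = 1.9e-16). Its paralog *Atp6v0e*, named after its values were seen, had a median of 4270.5 in microglia, so that *Atp6v0e2* supplied 1.51% ± 0.27 of the pair per length there, against 60.7% ± 6.1 in pericytes and 50.9% ± 5.8 in astrocytes.

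**Figure D2:**
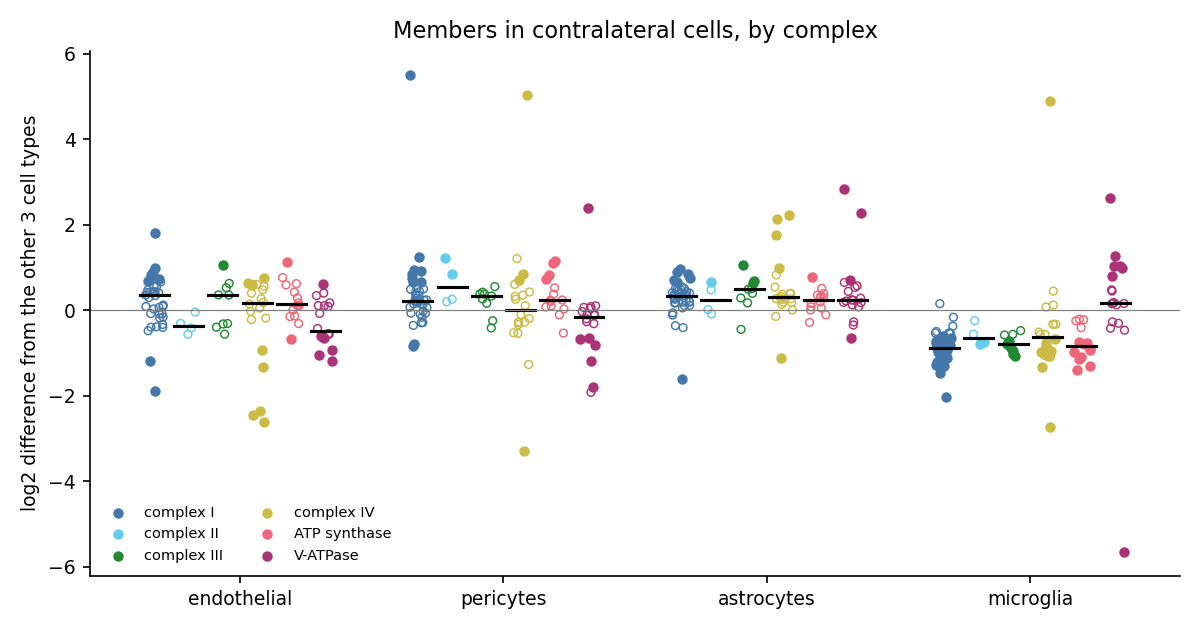
Difference of each member between a contralateral cell type and the mean of the other 3, on the log2 scale, coloured by complex. Filled points passed the test, open points did not, and black lines are medians; in microglia the medians of complexes I to IV and the ATP synthase lie between -0.87 and -0.62 and that of the V-ATPase at 0.18.

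Pericytes stood out by a pair of isoforms. *Ndufa4l2*, the hypoxia-induced relative of *Ndufa4*, ranged from 770 to 3788 normalized counts in contralateral pericytes (median 1345) and from 2 to 136 in all other contralateral libraries. *Cox4i2*, the oxygen-sensitive form of complex IV subunit 4, ranged from 229 to 1508 (median 654) and from 0 to 129 elsewhere. Neither overlapped with any other contralateral cell type, and the differences were 5.51 (SE 0.66, adjusted p = 2.8e-07) and 5.04 (SE 0.63, adjusted p = 5.0e-07). Per length, *Ndufa4l2* supplied 51.8% ± 22.7 of the RNA of the pair with *Ndufa4* in contralateral pericytes, and a mean of 1.29% to 4.18% in the other cell types. *Cox4i2* supplied 17.7% ± 10.8 of the pair with *Cox4i1*, and a mean of 0.546% to 1.73% elsewhere. Both shares varied widely between pericyte replicates, from 26.1% to 85.1% and from 4.63% to 35.6%. The normalized counts of both genes were highest in replicates 5 and 6 of either hemisphere, and the cause was not tested.

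In pericytes 17 of 85 respiratory chain and ATP synthase members were higher and 3 were lower, beside 18.0% and 27.5% of all genes. *Atp5b*, the catalytic subunit of the ATP synthase, was at 30891 to 35856 normalized counts against 9915 to 24331 elsewhere, a difference of 1.15 (SE 0.11, adjusted p = 5.9e-09). *Sdhc* and *Atp5a1* were higher by 1.23 and 1.11. These are parts of the membrane anchor of complex II and the catalytic head of the ATP synthase. Of the V-ATPase, 1 member was higher, *Atp6v0e2*, and 5 were lower, among them *Tcirg1* by -1.79 and *Atp6v0b* by -1.19. *Cox6a2* was 0 in 4 of 6 contralateral pericyte libraries.

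**Figure D3:**
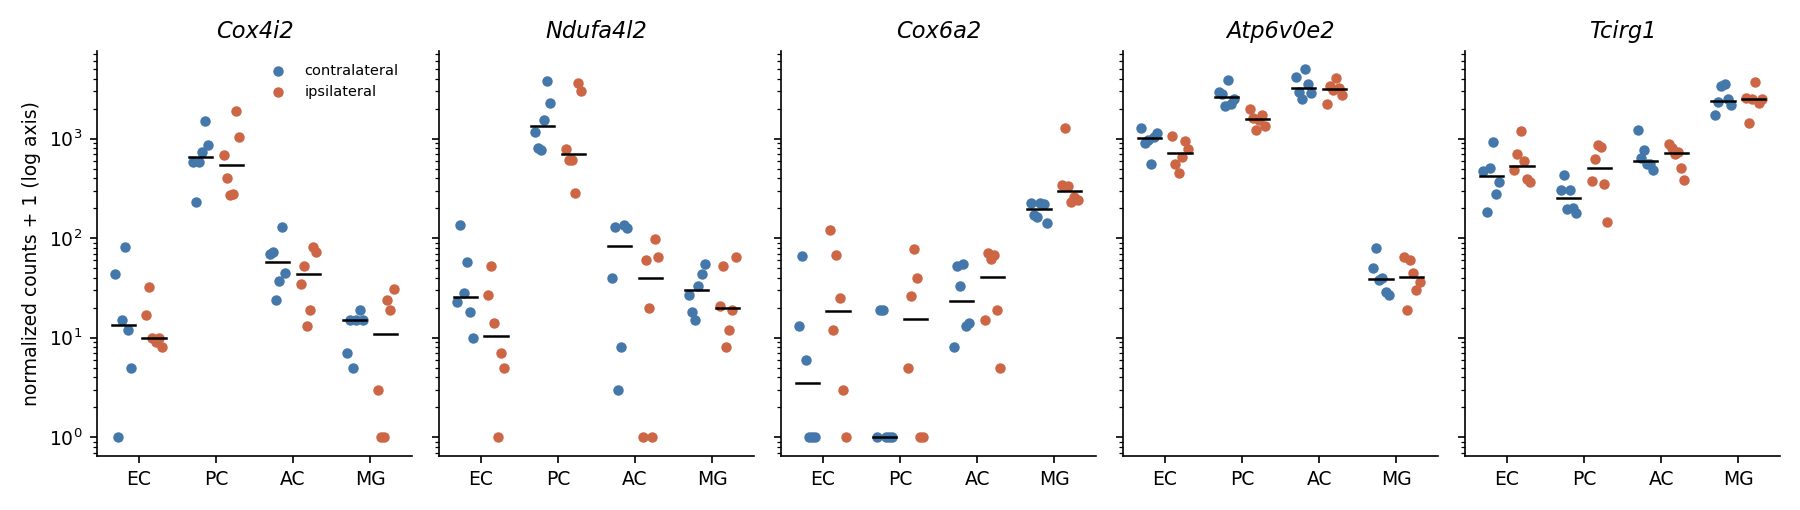
Normalized counts + 1, on a log axis, of 5 isoforms in each library; MG stands for microglia, AC for astrocytes, PC for pericytes and EC for endothelial cells. Black lines are medians (n = 6 a group); *Cox4i2* and *Ndufa4l2* are highest in pericytes, *Cox6a2* and *Tcirg1* in microglia, and *Atp6v0e2* is lowest in microglia, with a contralateral median of 38.

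In astrocytes 15 of 85 respiratory chain and ATP synthase members were higher and 2 were lower, beside 31.6% and 17.0% of all genes. Of the V-ATPase 3 were higher and 1 was lower, and all of *Ppa1*, *Ppa2*, *Lhpp* and *Yjefn3* were higher. *Atp6v0e2*, *Yjefn3*, *Atp6v1g2* and *Cox6b2* led, with 2.85, 2.53, 2.29 and 2.23. *Atp6v1g2* is the form of a V1 stalk subunit known from neurons, and *Cox6b2* the form of a complex IV subunit known from testis. *Cox7a2l* was the only respiratory chain member below all other libraries, at 275 to 449 normalized counts against 555 to 2295 (difference -1.10, SE 0.20, adjusted p = 6.8e-05). These libraries also carried the oligodendrocyte RNA given above, and its part was not tested.

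In endothelial cells 11 of 85 were higher and 8 lower, beside 16.6% and 27.2% of all genes. Without contralateral replicate 2 the counts turned to 4 higher and 11 lower, and the median from 0.18 to -0.14. *Ndufa7*, an accessory subunit of complex I, did not depend on that library. It ranged from 2727 to 13206 normalized counts (median 3432) against 761 to 1897 elsewhere, a difference of 1.80 (SE 0.22, adjusted p = 3.6e-07) and of 1.47 (adjusted p = 1.4e-08) without it. *Atp5j*, *Uqcrb* and *Ndufa1* were higher by 1.12, 1.06 and 0.98, and by 0.83, 0.73 and 0.60 without it. *Ndufs1*, the largest subunit of complex I, was lower by -1.17 (SE 0.24, adjusted p = 3.1e-04). Contralateral replicate 2 held 161 normalized counts of it against 587 to 993 in the other 5, and without it the difference was -0.80 (adjusted p = 1.2e-04). Of 18 V-ATPase members 6 were lower and 1 higher, and 7 lower and 0 higher without that library. *Atp6v0a1* and *Atp6v0a2* were lower by -1.19 and -1.05, and by -0.68 and -0.69 without it.

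After stroke, most members had higher values in ipsilateral than in contralateral microglia, but few of them passed the test gene by gene. A gene was called regulated at an adjusted p of at most 0.05 and a fold change of at least 1.5 in either direction, where every replicate of 1 hemisphere exceeded 10 normalized counts. Of the 85 respiratory chain and ATP synthase members, 4 were upregulated and 0 downregulated in ipsilateral microglia. Of 13300 genes tested, 4.29% were upregulated and 6.27% downregulated. With the adjusted p alone, 9 of all 107 members were higher and 0 were lower, beside 4.62% and 6.62% of all genes. A fit that also held the replicate as a block called 10 of the 85 upregulated.

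The count by pairs shows how widely the direction was shared. Of the 85, 40 were higher in the ipsilateral library of all 6 replicate pairs (47.1%), against 9.49% of all genes, and 0 were lower in all 6, against 13.8%. They were 16 of 38 in complex I, 1 of 4 in complex II, 6 of 9 in complex III, 7 of 20 in complex IV and 10 of 14 in the ATP synthase. The median change of the 85 was 0.56, beside -0.18 for all genes, and it was above 0 in each pair, from 0.11 to 1.79. The highest value came from replicate 2, where the ipsilateral library stood apart. Without that library 5 were upregulated and 1, *Cox7a2l*, was downregulated, and the median was 0.28 beside -0.12 for all genes.

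**Figure D4:**
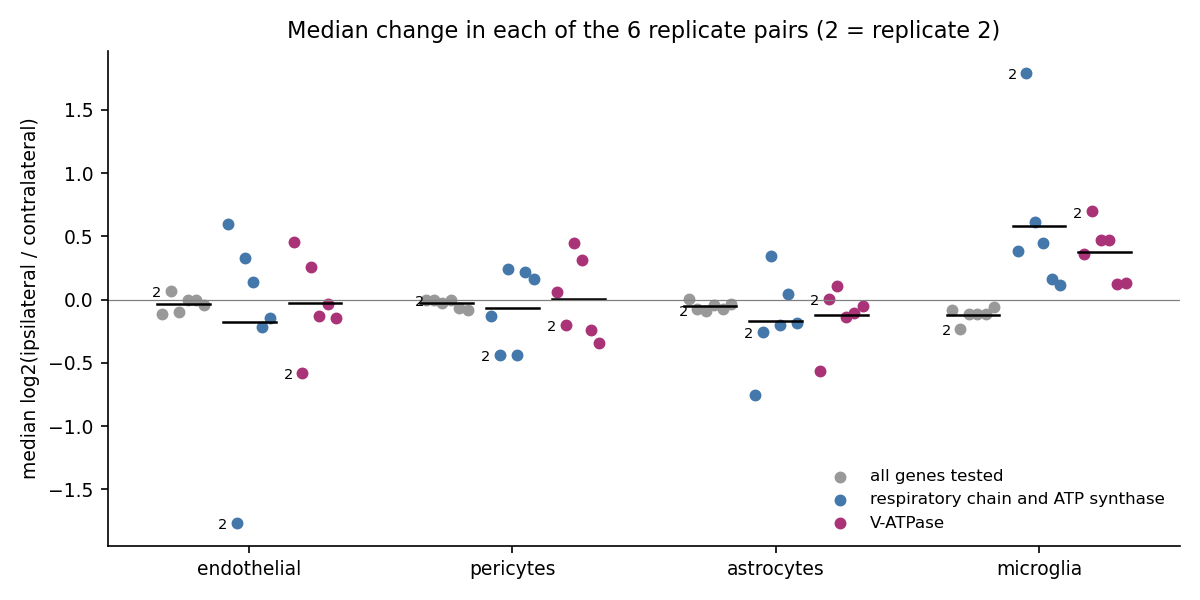
Median log2 ratio of ipsilateral to contralateral values in each of 6 replicate pairs, for all genes tested, the respiratory chain and ATP synthase members and the V-ATPase members, in 4 cell types. Black lines are means over pairs and the digit 2 marks replicate 2; in microglia all 6 pairs lie above 0 for both lists, from 0.11 to 1.79 and from 0.13 to 0.70.

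*Atp5g1*, 1 of 3 genes for the c ring of the ATP synthase, ranged from 730 to 1145 normalized counts in contralateral (median 967.5) and from 1303 to 4905 in ipsilateral microglia (median 1942). The hemispheres did not overlap, and the change was 1.13 (SE 0.27, adjusted p = 0.0169). *Ndufb6*, an accessory subunit of complex I, went from 211 to 404 (median 337.5) to between 413 and 1703 (median 678.5), a change of 1.13 (SE 0.31, adjusted p = 0.0316). Without ipsilateral replicate 2, which held the highest value of both, the changes were 0.88 (adjusted p = 0.0041) and 0.87 (adjusted p = 0.0178).

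*Ndufa10* and *Ndufa12*, further accessory subunits of complex I, were higher in all 6 pairs. *Ndufa10* ranged from 878 to 1103 and from 1214 to 3350, a change of 0.72 (SE 0.22, adjusted p = 0.0491, and 0.0555 with the replicate block). Without ipsilateral replicate 2 its change was 0.50. *Ndufa12*, named after its values were seen, changed by 1.14 (SE 0.33, adjusted p = 0.0383) and by 0.80 without that library. Leaving out replicate 1, 3 or 4 from both hemispheres brought the number of upregulated respiratory chain and ATP synthase members to 0.

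Among the listed main subunits, *Atp5b* changed by 0.56 (SE 0.14, adjusted p = 0.0198), just under the fold required. *Cox5a*, a subunit of complex IV, changed by 1.06 (adjusted p = 0.0508, and 0.0249 with the block). *Ndufs1* and *Sdha* had medians of 882.5 and 3457 normalized counts in contralateral and 748.5 and 2990 in ipsilateral microglia, and neither passed the test.

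Of the V-ATPase, 3 of 18 members were upregulated in microglia and 0 downregulated, beside 4.29% and 6.27% of all genes. The median change was 0.33, beside -0.18 for all genes. Its share of all normalized counts was 0.335% ± 0.019 in contralateral and 0.422% ± 0.051 in ipsilateral libraries, and the hemispheres did not overlap. *Atp6v1a* (ENSMUSG00000052459, GRCm38 chr16:44085402-44139305), the catalytic subunit of V1, was at 1031 to 1994 normalized counts in contralateral microglia (median 1162) and at 2231 to 3785 in ipsilateral microglia (median 2632). It was higher in 6 of 6 pairs without overlap, by 1.10 (SE 0.20, adjusted p = 0.0031, and 0.00825 with the block), and by 1.03 (adjusted p = 0.0020) without ipsilateral replicate 2.

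*Atp6v1h*, a V1 subunit that couples V1 to V0, ranged from 970 to 1720 (median 1304) and from 1755 to 2471 (median 2195), a change of 0.74 (SE 0.17, adjusted p = 0.0116). *Atp6v0c*, the main subunit of the V0 ring, ranged from 373 to 589 (median 477) and from 512 to 1482 (median 953.5). It was higher in all 6 pairs although the ranges overlapped, by 0.95 (SE 0.25, adjusted p = 0.0223). Leaving out replicate 1, 3 or 4 left 1 of the 3 calls.

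*Ppa1*, the cytosolic pyrophosphatase that the pathway term also lists, had the smallest adjusted p of all members. It ranged from 230 to 514 normalized counts in contralateral microglia (median 345) and from 844 to 2254 in ipsilateral microglia (median 980.5), a change of 1.70 (SE 0.26, adjusted p = 0.0012). Without ipsilateral replicate 2 it was 1.499 (adjusted p = 2.1e-04). In pericytes its medians were 243.5 and 601, with 6 of 6 pairs higher and no overlap, but the change of 1.61 had an adjusted p of 0.0532 (0.0377 with the block). In endothelial cells they were 328 and 882, and the change of 1.29 (adjusted p = 0.113) was 1.598 (adjusted p = 0.0039) without contralateral replicate 2. In astrocytes the change was 0.26 (adjusted p = 0.756).

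**Figure D5:**
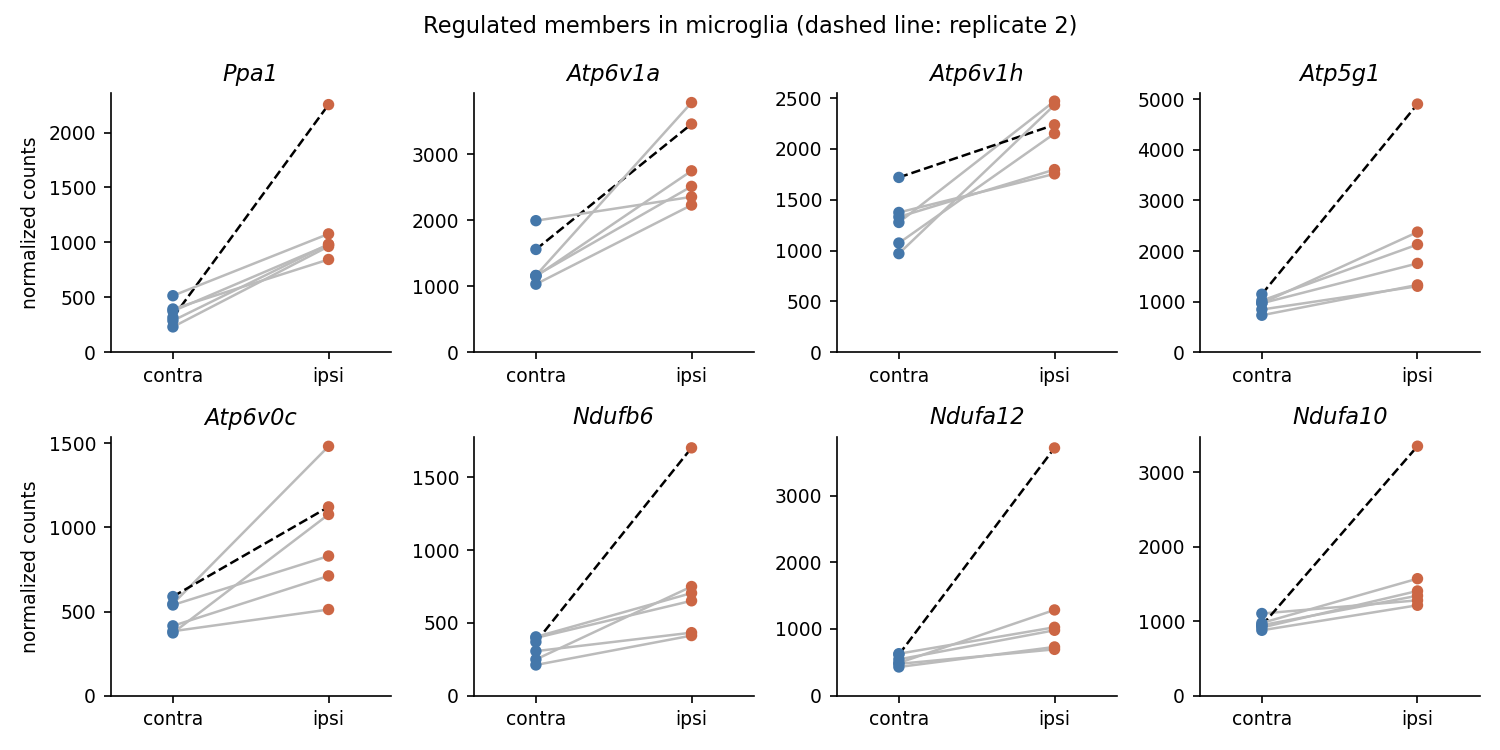
Normalized counts of the 8 members upregulated in ipsilateral microglia, with a line for each replicate pair (n = 6) and a dashed line for replicate 2. All 6 pairs rise for each gene; *Atp6v1a* goes from between 1031 and 1994 to between 2231 and 3785, and replicate 2 is the highest ipsilateral library for *Ppa1*, *Atp5g1*, *Ndufb6*, *Ndufa12* and *Ndufa10*.

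Other RNA moved in the same libraries. Summed over 7 markers, neutrophil RNA was at 59 to 924 normalized counts in contralateral and 1349 to 18497 in ipsilateral microglia, with the highest sum in replicate 2. The 4 microglial markers summed to 180699 to 227678 and to 91419 to 163197, and 4 astrocyte markers to 2851 to 3616 and to 958 to 1432. None of these 3 sums overlapped between hemispheres. Of the 7 neutrophil markers, 2 stayed at 10 or less in all 6 ipsilateral microglia libraries, 1 of them at 0. The sum over 6 monocyte and macrophage markers did overlap, at 327 to 1661 in contralateral and 1075 to 2967 in ipsilateral microglia. So did the sums for neurons, oligodendrocytes, red blood cells, endothelial cells and pericytes. Ribosomal protein genes, taken by symbol, made up 0.939% to 1.526% of all normalized counts in contralateral and 1.138% to 3.135% in ipsilateral microglia. Their share was higher in the ipsilateral library of each pair, with the highest value in replicate 2. The part of all these in the changes above was not tested.

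Whether the change in microglia differed from that in the other cell types was tested in a fit of all 48 libraries. Over 15003 genes, 0.293% had a higher and 0.28% a lower change in microglia than the mean of the other 3 cell types. Of the members, 2 had a higher change and 0 a lower one. *Atp6v1a* differed by 1.04 (SE 0.22, adjusted p = 0.0108, and 0.0054 with the block), with changes of -0.11 in endothelial cells, 0.12 in pericytes and 0.15 in astrocytes. *Ndufa10* (ENSMUSG00000026260, GRCm38 chr1:92439010-92473860) differed by 0.97 (SE 0.21, adjusted p = 0.0135, and 0.0076 with the block), with changes of -0.03, -0.56 and -0.15. The median difference was 0.71 for the respiratory chain and ATP synthase and 0.35 for the V-ATPase, beside -0.16 for all genes. It was 0.31 and 0.27, beside -0.07, without both libraries that stood apart, and in replicates 1 to 4 alone neither gene passed the test. *Atp6v1a* lost the call without replicate 1 or 6 (highest adjusted p = 0.0709), and *Ndufa10* without replicate 2, 4 or 6 (highest adjusted p = 0.151).

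Promoter sequences were read for all members that had one. RefSeq windows of 300 bases, from 250 before to 50 after the start of transcription in GRCm38.p6, were given for 84 of 107 members. The letters CACGTG, the E-box core bound by the lysosomal regulators TFEB and TFE3, stood in the windows of 4 of 13 V-ATPase genes (30.8%), of 4 of 68 respiratory chain and ATP synthase genes (5.88%) and of 8.09% of 27025 genes with a window. CACGTG reads the same on both strands. The members that hold it are *Atp6v0b*, *Atp6v0d1*, *Atp6v0e*, *Atp6v1a*, *Ndufa7*, *Ndufv1*, *Atp5g1*, *Atp5g3* and *Ppa1*. They include *Ndufv1*, which was lower in contralateral microglia, as well as members that were higher there or after stroke. The 10-base consensus site of nuclear respiratory factor 1 also reads the same on both strands. It stood in the windows of 5 of 68 respiratory chain and ATP synthase genes (7.35%). For the V-ATPase it was 1 of 13 genes (7.69%), and for all genes 1.07%. CCGGAAGT, the site of GABP, sought on both strands, stood in 7 of 68 (10.3%), in 2 of 13 V-ATPase genes (15.4%) and in 4.31% of all genes. None of the 3 motifs contains another. A match describes the letters in the window, not binding.

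The windows of *Atp6v1a* (chr16:44139210-44139509, minus strand), *Atp6v0b* (chr4:117887280-117887579, minus strand), *Atp5g1* (chr11:96075582-96075881, minus strand) and *Uqcrc1* (chr9:108936398-108936697, plus strand) are shown from 5′ to 3′ as examples of windows that hold these letters. Capitals mark CACGTG in the first 3 and the nuclear respiratory factor 1 site in *Uqcrc1*, a core subunit of complex III that had a median of 4902 normalized counts in contralateral and 6167.5 in ipsilateral microglia and was not called.
Atp6v1a: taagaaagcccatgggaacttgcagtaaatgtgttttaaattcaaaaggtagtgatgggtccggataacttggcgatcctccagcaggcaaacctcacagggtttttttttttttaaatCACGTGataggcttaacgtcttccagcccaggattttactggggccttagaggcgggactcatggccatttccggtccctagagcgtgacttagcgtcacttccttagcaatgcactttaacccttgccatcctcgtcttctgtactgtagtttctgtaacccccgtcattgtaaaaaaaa
Atp6v0b: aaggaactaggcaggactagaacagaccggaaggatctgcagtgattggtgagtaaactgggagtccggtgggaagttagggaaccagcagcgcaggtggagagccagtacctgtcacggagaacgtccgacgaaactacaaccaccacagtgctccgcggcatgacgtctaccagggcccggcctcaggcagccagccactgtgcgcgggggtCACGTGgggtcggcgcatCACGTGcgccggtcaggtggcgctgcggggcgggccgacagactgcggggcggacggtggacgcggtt
Atp5g1: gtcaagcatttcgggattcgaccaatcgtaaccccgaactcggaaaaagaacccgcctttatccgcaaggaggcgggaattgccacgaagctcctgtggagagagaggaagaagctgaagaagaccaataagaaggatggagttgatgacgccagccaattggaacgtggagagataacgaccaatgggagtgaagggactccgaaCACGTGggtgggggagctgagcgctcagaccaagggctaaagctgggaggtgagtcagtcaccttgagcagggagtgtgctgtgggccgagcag
Uqcrc1: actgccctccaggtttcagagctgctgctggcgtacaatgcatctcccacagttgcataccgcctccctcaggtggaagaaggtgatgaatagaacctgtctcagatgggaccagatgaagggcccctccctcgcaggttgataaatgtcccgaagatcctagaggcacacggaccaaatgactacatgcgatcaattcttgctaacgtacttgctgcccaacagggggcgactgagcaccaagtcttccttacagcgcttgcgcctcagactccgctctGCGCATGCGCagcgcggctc

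In endothelial cells, pericytes and astrocytes, the respiratory chain and ATP synthase members had 0 calls after stroke by limma, and so had the 18 V-ATPase members in endothelial cells and astrocytes. At an unadjusted p under 0.05, 2 of 85 passed in endothelial cells, 10 of 84 in pericytes and 3 of 84 in astrocytes, and 0 and 2 of the V-ATPase members in endothelial cells and astrocytes. Over all genes, 1581 of 13242, 2098 of 13597 and 1416 of 15264 passed at that p, a larger share than that of the respiratory chain and ATP synthase members in each cell type. By the adjusted p and fold, of all genes, 0.362% were upregulated and 0.128% downregulated in endothelial cells, 0.441% and 0.581% in pericytes, and 0.334% and 0.00655% in astrocytes. The median change was -0.18 in endothelial cells, -0.08 in pericytes and -0.15 in astrocytes, beside -0.03, -0.04 and -0.06 for all genes. The pair medians went both ways in each, from -1.77 to 0.60, from -0.43 to 0.24 and from -0.75 to 0.34. Without contralateral replicate 2, the endothelial median was 0.13.

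The 1 call outside microglia was a V-ATPase member in pericytes. *Atp6v0e2* ranged from 2106 to 3844 normalized counts in contralateral (median 2638.5) and from 1206 to 1979 in ipsilateral pericytes (median 1578). It was lower in 6 of 6 pairs without overlap, by -0.79 (SE 0.17, adjusted p = 0.0445), and its share of the RNA of the pair with *Atp6v0e* was 60.7% ± 6.1 and 41.4% ± 10.2. The call was lost with any 1 replicate left out, and over the alternatives run the adjusted p from limma ranged from 0.0369 to 0.173. The 4 microglial markers summed to 249 to 11003 in contralateral and 267 to 28388 in ipsilateral pericytes. Their part in the change was not tested.

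Further pericyte members were lower in every pair without passing the test. Of the 84 tested, 13 of the respiratory chain and ATP synthase were lower in all 6 pairs (15.5%), against 6.86% of all genes. *Sdha*, the catalytic subunit of complex II, had medians of 8333.5 and 6044.5 (change -0.52, adjusted p = 0.0800), and *Ndufa10* of 1872 and 1266.5 (change -0.56, adjusted p = 0.103). *Ndufa4l2* and *Cox4i2*, the pericyte isoforms, had medians of 1345 and 695.5 and of 654 and 537, with overlapping ranges in both cases. Neither was lower in every pair. *Ndufa4l2* was higher in the ipsilateral library of replicate 6, and *Cox4i2* in those of replicates 1, 2, 5 and 6. Their changes were -0.57 and -0.14, and neither passed the test.

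Lists of genes that work with the pathway were compared in the same fits. Of 37 assembly factors tested, 2 were upregulated in microglia, *Ndufaf4* by 1.11 (SE 0.30, adjusted p = 0.0281) and *Coa5* by 0.76 (SE 0.22, adjusted p = 0.0413), beside 4.29% of all genes, with a list median of 0.22 and 0 calls in the other 3 cell types. Of 17 tricarboxylic acid cycle genes, *Mdh2* and *Dld* were upregulated in microglia by 0.84 and 0.65, beside the same 4.29%. *Idh2* and *Idh3b* were downregulated in pericytes by -0.87 and -0.79, beside 0.581% of all genes. In contralateral cells, 14 of the 17 were higher in pericytes, beside 18.0% of all genes, and 12 were lower in microglia, beside 29.6%. Of 16 regulators of mitochondrial biogenesis tested in microglia, *Polg*, the mitochondrial DNA polymerase, was lower by -1.04, beside 6.27% of all genes. Of 8 genes linked to hypoxia in mitochondria, *Pdk1*, which restrains pyruvate entry, was lower there by -0.74. These genes were named after their values were seen.

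The subunits encoded in mitochondria, listed without the pathway term, were compared the same way. Of 13 such genes 8 were in the table and 7 were tested, and 0 were called after stroke in any cell type by limma. The median change was 0.19 in microglia, -0.14 in astrocytes, -0.15 in pericytes and -0.65 in endothelial cells. In contralateral endothelial replicate 2, which stood apart, messenger RNA of such subunits made up 2.41% of all normalized counts. It made up 0.751% to 1.42% in the other contralateral endothelial libraries. In contralateral microglia 3 of 7 were lower, *mt-Co1* by -1.09, *mt-Cytb* by -1.16 and *mt-Nd4* by -0.79, beside 29.6% of all genes. In contralateral astrocytes 4 of 7 were higher, beside 31.6% of all genes.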

How the data were processed

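RNA of sorted cells was sequenced in 48 libraries, 6 for each of 4 cell types and 2 hemispheres. Per the labels and the study's methods, the authors trimmed reads with Trimmomatic 0.38, aligned them with STAR 2.6.1d to GRCm38, counted reads that fell in 1 gene only with featureCounts 1.6.3 and normalized the counts with DESeq2 1.18.1. The deposited values are whole numbers after that normalization, so they were treated as a score, and no count test was run. Reads shared by near-identical genes are missing from such counts.

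Members and gene lists were chosen with earlier results of these data known. Genes with a mean of at least 10 over the libraries of a fit were tested by limma 3.58.1 (R 4.3.3, trended empirical Bayes) on log2(value + 1), with Benjamini-Hochberg adjustment over all genes. Fold changes are on that scale, which understates those of low genes. The scripts were tested on simulated data. Each stroke comparison used 12 libraries, contralateral cell types 24 and the difference between cell types 48. By the study's methods both hemispheres came from the same pooled mice, and equal replicate numbers were taken to pair them. Deviations from the group means correlated at 0.135 to 0.380 on average between same-numbered libraries. The -0.0759 to -0.0258 between others follows from centring on the group means and is no separate evidence. Same-numbered libraries correlated above 0.1 in 3 of 6 pairs in endothelial cells and in microglia, 4 in pericytes and 5 in astrocytes. The main fit had no replicate block, since the study's methods name none, and the block was an alternative.

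Named genes were, in each cell type, up to 6 regulated members a direction by adjusted p. Up to 4 higher and 3 lower contralateral members by size were added. So were listed isoforms, listed main subunits and the members highest and lowest in each complex. Gene lengths for shares per length were union exons of GENCODE M21. Other settings are given in the closing section.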

Additional observations from a re-analysis of the deposited data

Results flagged for a closer look

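Of 112 groups of 6 values examined, 15 had a sample far from the others by Dixon's ratio of the gap to the whole range. In all 15 it was replicate 2 with the highest value. Chance flags about 1 in 20 independent groups. The 112 groups share the same libraries, and the shares include the values of genes examined alone. The 15 therefore cannot be set against that rate. In contralateral endothelial cells the ratio was 0.761 for the share of the respiratory chain and ATP synthase members and 0.686 for that of the V-ATPase members. It was 0.637 for *Atp6v0c*, 0.736 for *Atp5g1*, 0.879 for *Ndufb6*, 0.793 for *Ppa1*, 0.630 for *Ndufa4l2* and 0.815 for *Cox6a2*. In ipsilateral microglia it was 0.677 for the share of the respiratory chain and ATP synthase members, 0.703 for *Atp5g1*, 0.739 for *Ndufb6*, 0.833 for *Ndufa10*, 0.835 for *Ppa1* and 0.894 for *Cox6a2*. In contralateral pericytes it was 0.694 for the share of the V-ATPase members. The cause was not tested.

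The stroke change in microglia differed from the mean of the other 3 cell types by 1.04 for *Atp6v1a* and by 0.97 for *Ndufa10*, each tested as a difference in the fit of all 48 libraries.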

How the results depend on the processing

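With the replicate number as a block, 10 respiratory chain and ATP synthase members were regulated in microglia in place of 4. The block ended the call of *Ndufa10* there and no other call of a named member. Without a filter on low values the count was 0, with rescaled libraries 8, in a joint fit of all libraries 7, and with 1 replicate left out 0 to 6. The 3 V-ATPase members regulated in microglia became 1 to 4 with 1 replicate left out. The 1 V-ATPase member regulated in pericytes became 0 without the filter, with rescaled libraries, in the joint fit, in replicates 1 to 4 and with any 1 replicate left out (0 to 0). With the cell types of the sample titles, 17 respiratory chain and ATP synthase and 12 V-ATPase members were regulated in pericytes and 52 and 8 in microglia. That alternative sets ipsilateral libraries with microglial markers against contralateral pericytes, and the reverse. Its counts therefore hold differences between cell types and are not stroke changes within 1 cell type. The 2 members whose change differed between microglia and the other cell types became 0 in replicates 1 to 4 and 0 to 2 with 1 replicate left out. The 25 members called in contralateral astrocytes became 13 in replicates 1 to 4, and 17 to 33 with 1 replicate left out. The causes of the other shifts were not tested. Apart from the endothelial results without contralateral replicate 2, no result changed direction past a threshold in the alternatives run. Without that library, the endothelial medians of the respiratory chain and ATP synthase members changed sign, both in contralateral cells and after stroke. Lower contralateral calls then outnumbered higher ones. The alternatives with replicates 1 to 4, without the libraries that stood apart and with rescaled contralateral libraries were chosen after seeing the data. Rounded normalized counts give no exact read numbers, so counting error was not separated from replicate spread.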
